A study of Mus musculus with 28 samples.

Results

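Respiratory chain subunits encoded in the nucleus were followed in 28 RNA-seq libraries from Lgr5-GFP mice, in which green fluorescent protein reports the stem cell receptor gene Lgr5. Members were taken by gene symbol: names that start with Nduf (assembly factors named Ndufaf left out), Uqcr, Cox4 to Cox8 or Atp5, together with Cyc1, Sdha, Sdhb, Sdhc and Sdhd. Of 107 matching names, 14 pseudogene names containing -ps were dropped, which left 93 of the 54354 genes measured. Complex I has 41 of them, complex II 4, complex III 9, complex IV 21 and complex V 18. Ndufa4 and its paralogue Ndufa4l2 were placed in complex IV, of which NDUFA4 is a subunit despite its name, and Atp5o is listed under 2 gene identifiers.

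The libraries form 4 groups of 7. They are Lgr5-low cells on control diet, Lgr5-high cells on control diet, Lgr5-low cells on cystine diet and Lgr5-high cells on cystine diet, all of the genotype Lgr5-GFP and from the small intestine. Cystine is made of a pair of cysteine molecules joined by a disulphide bond, and the study's title ties dietary cysteine to stemness of the intestine. Strain, age, sex and the amount of cystine are not given in the labels, and nothing there ties a library to an animal. The p-values below therefore reflect variation among libraries, which may in part be technical. Organoids are given as the RNA source in the extraction protocol and isolated cell populations in the design text, a conflict not settled here.

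The respiratory chain sits in the inner mitochondrial membrane. Complex I takes electrons from NADH and complex II takes them from succinate, coenzyme Q carries them to complex III, and cytochrome c carries them on to complex IV, which reduces oxygen. Complexes I, III and IV pump protons, and complex V, the ATP synthase, uses the gradient to make ATP. Complex II is encoded wholly in the nucleus, whereas the other complexes combine nuclear subunits with subunits made from mitochondrial DNA. In the crypt, Lgr5-expressing stem cells lie between Paneth cells and give rise to absorptive enterocytes and to secretory goblet and enteroendocrine cells.

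Total counts ranged from 2.75 M to 21.5 M (M for mega) per library. Lgr5 itself followed the labels, at 21.5 to 45.1 CPM in Lgr5-high control, 16.2 to 35.3 CPM in Lgr5-high cystine, 0.214 to 10.04 CPM in Lgr5-low control and 2.70 to 10.9 CPM in Lgr5-low cystine libraries. Levels in CPM state the count of a gene relative to its library total, adjusted by TMM (trimmed mean of M-values) factors. Of the 6 stem cell markers Lgr5, Olfm4, Ascl2, Slc12a2, Smoc2 and Axin2, 5 were higher in Lgr5-high cells on control diet and 4 on cystine diet. The libraries also fell apart by Xist, the RNA that coats the inactive X chromosome of female cells. In 10 libraries Xist was under 50 CPM (at most 7.73 CPM), and in 18 it was over 50 CPM (at least 124 CPM). The former are called Xist-poor and the latter Xist-rich. This division was made from the data. It coincides with replicates 1 to 3 of both control groups and replicates 1 and 2 of both cystine groups, so that sex and anything else that goes with those replicate numbers cannot be told apart. Because it moves with many members, values are given within both classes where they bear on a result. Depth ranged from 4.11 M to 7.94 M in Xist-poor and from 3.09 M to 21.5 M in Xist-rich Lgr5-low libraries, and from 3.39 M to 14.9 M and from 2.75 M to 21.4 M in Lgr5-high libraries.

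The promoters of 4 members that the comparisons below turn on are shown first. They run from 250 bases before to 50 bases after the start of the gene, are taken from RefSeq on GRCm38.p6, and are written 5′ to 3′ on the strand of the gene. Atp5g3 and Uqcr11 are the members that passed the test between populations on control diet, and Uqcrfs1 and Cox5a passed it on cystine diet. Capitals mark matches to any of 4 motifs searched on both strands. The motifs were TGCGCATGC (NRF1), TCAAGGTCA (ERR, the oestrogen-related receptors), CCGGAAGT (ETS factors, among them the nuclear respiratory factor NRF2) and CAAGATGGC (YY1). No motif contains another. The Atp5g3 window lies at chr2:73911277-73911576 (minus strand), that of Uqcr11 at chr10:80406772-80407071 (minus), that of Uqcrfs1 at chr13:30545267-30545566 (minus) and that of Cox5a at chr9:57520982-57521281 (plus).
Atp5g3: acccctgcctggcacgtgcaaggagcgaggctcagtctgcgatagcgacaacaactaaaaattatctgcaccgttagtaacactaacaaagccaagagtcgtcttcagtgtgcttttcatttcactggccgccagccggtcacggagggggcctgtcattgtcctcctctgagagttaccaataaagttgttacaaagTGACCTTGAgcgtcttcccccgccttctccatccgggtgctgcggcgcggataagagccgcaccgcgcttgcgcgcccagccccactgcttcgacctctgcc
Uqcr11: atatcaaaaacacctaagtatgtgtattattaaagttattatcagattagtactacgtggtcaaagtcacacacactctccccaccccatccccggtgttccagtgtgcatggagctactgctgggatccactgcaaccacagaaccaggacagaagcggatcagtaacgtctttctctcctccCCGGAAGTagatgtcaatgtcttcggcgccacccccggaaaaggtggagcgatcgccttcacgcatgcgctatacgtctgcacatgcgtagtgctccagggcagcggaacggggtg
Uqcrfs1: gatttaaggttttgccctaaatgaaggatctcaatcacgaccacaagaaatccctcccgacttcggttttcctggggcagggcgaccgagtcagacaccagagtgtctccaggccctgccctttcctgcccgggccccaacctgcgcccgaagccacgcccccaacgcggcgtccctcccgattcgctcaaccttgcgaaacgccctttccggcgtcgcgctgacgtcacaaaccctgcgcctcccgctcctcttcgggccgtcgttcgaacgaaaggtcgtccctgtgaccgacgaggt
Cox5a: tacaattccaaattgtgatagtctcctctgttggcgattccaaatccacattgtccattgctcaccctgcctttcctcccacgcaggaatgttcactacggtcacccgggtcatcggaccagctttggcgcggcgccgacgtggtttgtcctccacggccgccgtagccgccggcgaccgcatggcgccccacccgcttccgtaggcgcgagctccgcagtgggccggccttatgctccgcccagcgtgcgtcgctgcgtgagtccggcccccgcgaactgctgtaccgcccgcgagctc

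The match in Atp5g3 is the ERR motif in reverse orientation, TGACCTTGA, with its first base at -52, where position 0 is the first base after the 250 upstream bases. The match in Uqcr11 is the ETS motif, with its first base at -66. The windows of Uqcrfs1 and Cox5a held none of these letters. A promoter was found for 70 of the 92 member symbols, and 18 of them held a match to at least 1 motif. The YY1 motif was in 6 members (8.57%), against 1.42% of all 27025 promoters of the same length and 2.76% of the 9368 promoters of tested genes that are not members. The NRF1 motif was in 5 members (7.14%, against 1.72% and 3.48%) and the ERR motif in Atp5g3 and Sdhd (2.86%, against 0.466% and 0.32%). The ETS motif was in 5 members (7.14%), between the shares of all promoters (4.31%) and of other tested genes (9.62%). A match describes letters in the window and is not evidence of binding.

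Levels of the members spread over a wide range. Because transcript length affects counts, members are compared with each other as mean CPM per kb of transcript over the 28 libraries. By this measure 28 members lay over 1000 CPM per kb and 71 over 100 CPM per kb. In complex I the highest were Ndufc1 at 3749 and Ndufa1 at 3527 CPM per kb, both small accessory subunits of the membrane arm. Far lower were Ndufv1 at 87.8 CPM per kb, the core subunit that binds NADH and flavin, and Ndufs1 at 37.1, a core subunit with iron-sulphur clusters. The lowest detected member of complex I was Ndufs6b, at 0.136 CPM per kb.

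In complex II, Sdhb, the iron-sulphur subunit, had 874 CPM per kb and the membrane anchor Sdhd 602. Sdha, the flavoprotein that oxidises succinate, had 112 and the other anchor, Sdhc, 83.5 CPM per kb. In complex III the small subunits Uqcr10 (5850 CPM per kb) and Uqcrq (2436) led. The subunits that carry electrons were much lower, with 101.5 CPM per kb for Cyc1, which holds haem c1, and 66.8 for Uqcrfs1, the Rieske iron-sulphur protein. Uqcrc1, a core protein without a redox centre, was lowest at 35.7 CPM per kb.

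In complex IV, Ndufa4 (5885 CPM per kb), Cox7c (4653) and Cox6c (4587) led. Several of its subunits come as alternative isoforms, and these were present at unequal levels. Cox4i1 had 2019 CPM per kb whereas Cox4i2, the lung isoform, had 0 counts in all libraries. Cox6b1 had 2720 CPM per kb and its testis isoform Cox6b2 8.45. Cox6a1 had 370 CPM per kb, and its heart and muscle isoform Cox6a2 had 75 counts in 7 libraries. Cox8a had 472 CPM per kb, while Cox8b had 1 count and Cox8c 16 counts, all in 1 library. Cox7a differed from these pairs, since both Cox7a2 (1828 CPM per kb) and Cox7a1 (847), the form best known from heart and skeletal muscle, were abundant. Cox7a2l, which joins complexes III and IV in supercomplexes, had 498 CPM per kb. Cox5a (214.5) and Cox5b (325), which are different subunits and not isoforms, lay close together.

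In complex V, Atp5k (6041 CPM per kb) and Atp5o (5197) led. Atp5b, the catalytic beta subunit, had 401 CPM per kb and Atp5a1, the alpha subunit, 222. The c-ring subunit is encoded by 3 genes with the same mature product, of which Atp5g1 had 988, Atp5g2 623 and Atp5g3 456 CPM per kb. Their annotated lengths differ (2.675, 0.586 and 0.718 kb), and without division by length they had 2642, 365 and 327 CPM. Which annotated transcript was expressed was not tested for any member. The lowest detected entry was the second identifier of Atp5o, with 3 counts in all.

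**Figure D1:**
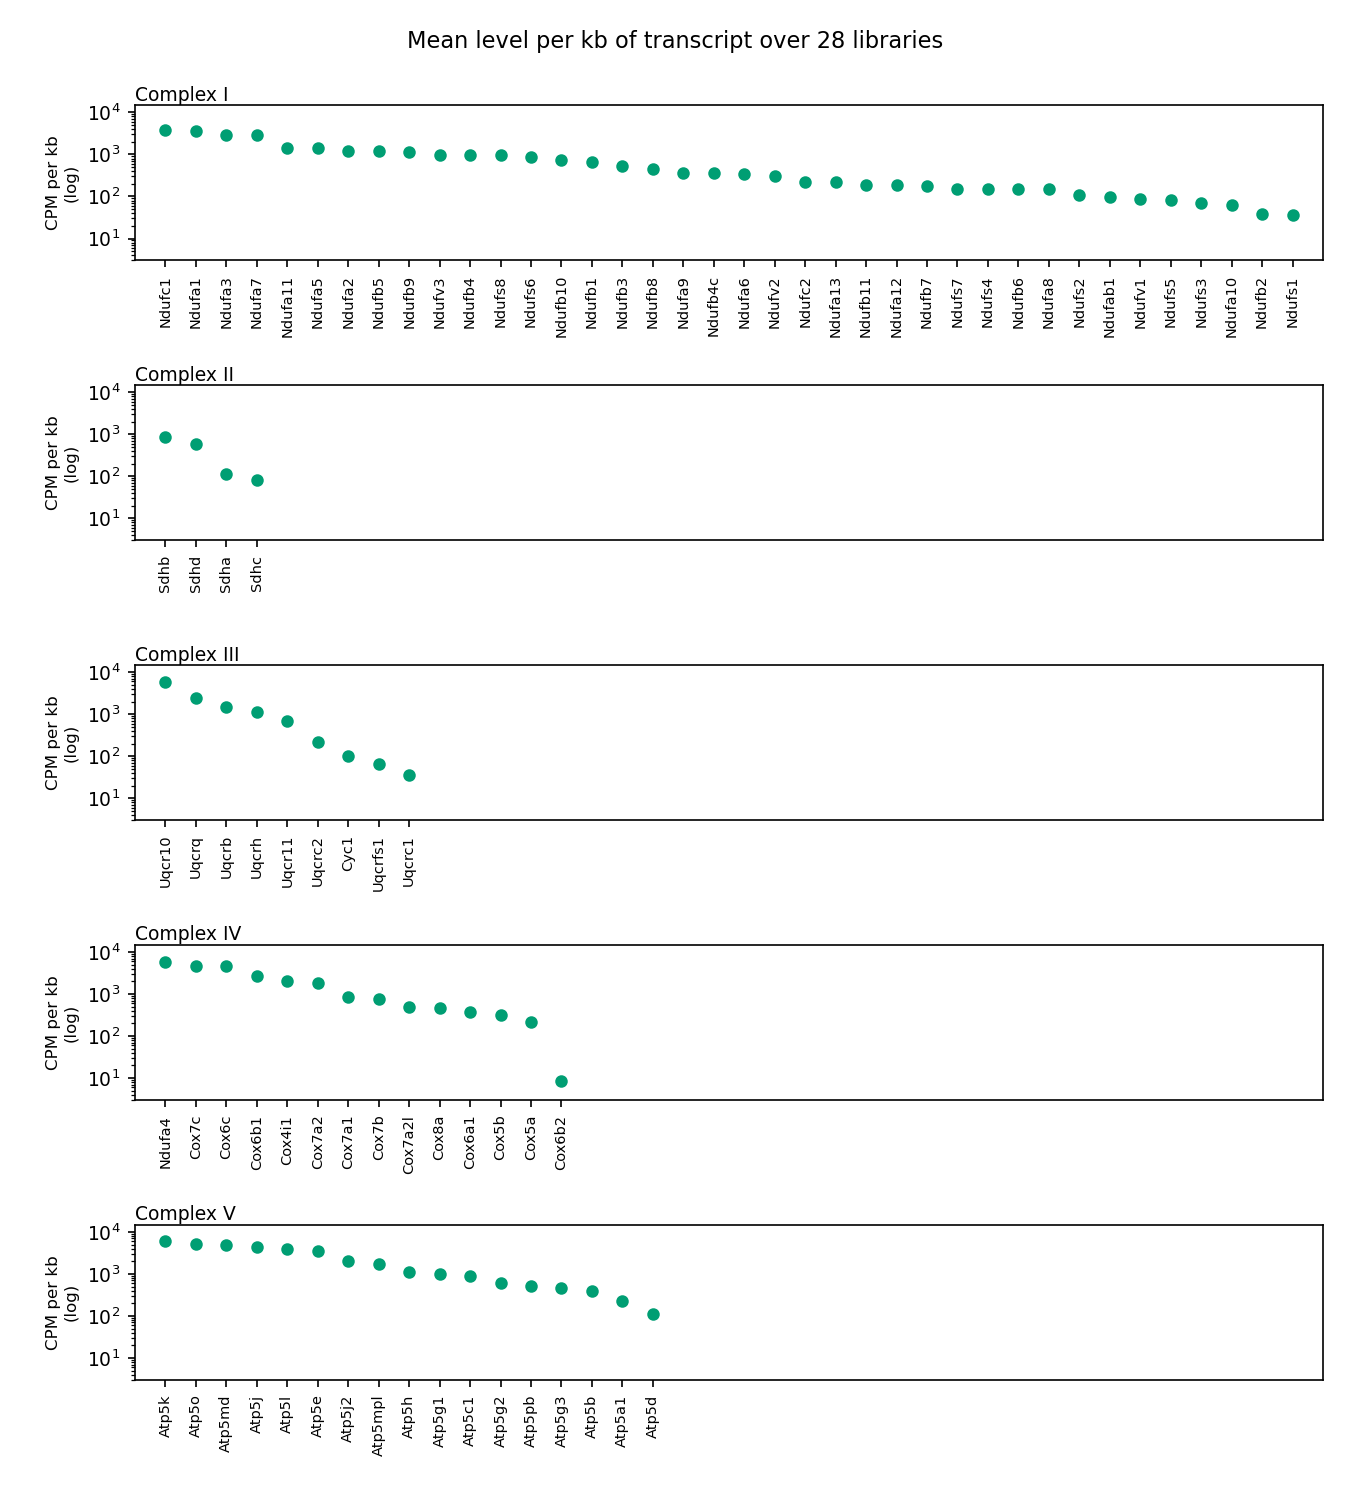
Mean level per kb of transcript (CPM per kb, log axis) over 28 libraries of the 82 members with a mean of at least 1 CPM, 1 panel per complex with members ordered by level. Small subunits such as Ndufc1 (3749), Uqcr10 (5850), Ndufa4 (5885) and Atp5k (6041) stand at the top, and Uqcrfs1 (66.8) and Uqcrc1 (35.7) at the lower end of complex III.

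The filter on low counts passed 82 of the 93 members. The other 11 were Ndufa11b, Ndufb11b, Ndufs6b, Cox4i2, Cox6a2, Cox6c2, Cox7b2, Cox8b, Cox8c, Ndufa4l2 and the second Atp5o identifier, with 0 to 75 counts each over 306.4 M counts. A total of 0 counts, as for Ndufb11b, Cox4i2 and Cox7b2, allows a level of up to 0.00979 CPM over all libraries, by counting error only. Close copies limit some values. At least 95% identity to another transcript over at least 150 bases was found for 28 members, and for 5 of them the copies held over 5% of the joint level. Cox7c had 2477 CPM before scaling beside 2126 CPM of its copy Cox7c-ps1 (99.4% identical over 315 bases), so that the division between them depends on how the reads were shared out. Ndufb4 and Ndufb4c were identical over 390 bases, with 905 and 136 CPM, and their values are uncertain in the same way. Cox6c2 and Ndufs6b were nearly all outweighed by Cox6c and Ndufs6.

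Summed over its members, no complex set the 4 groups apart, and the ranges of the groups overlapped for each. Values follow in the order Lgr5-low control, Lgr5-high control, Lgr5-low cystine and Lgr5-high cystine, as mean ± SD of 7 libraries in CPM. Complex I summed to 22390 ± 7906, 19250 ± 2567, 21050 ± 6129 and 20560 ± 3546. Complex II summed to 2538 ± 956, 2168 ± 306, 2526 ± 546 and 2080 ± 366. In both complexes the Lgr5-low groups were the more variable, and differences between means were smaller than the SD of the Lgr5-low groups. Complex III summed to 7475 ± 2269, 7018 ± 919, 7265 ± 1660 and 7432 ± 1255, with almost level means. Complex IV summed to 16270 ± 5234, 13920 ± 1792, 15070 ± 3332 and 16150 ± 2477. Complex V summed to 26320 ± 8744, 23610 ± 3344, 25640 ± 5652 and 25780 ± 4246. The sum of all members was 0.88 times as high in Lgr5-high as in Lgr5-low cells on control diet and 1.01 times on cystine diet. In these bulk samples a lower share of cells of a type and less RNA per cell cannot be told apart.

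Within each group the summed level of the members was on average higher in Xist-poor libraries. In Lgr5-low control libraries complex I summed to a mean of 30710 CPM in the 3 Xist-poor and 16150 CPM in the 4 Xist-rich libraries. Complexes II to V showed the same order there, with 3512 against 1808, 9821 against 5715, 21770 against 12150 and 35240 against 19630 CPM. Over all members, Xist-poor libraries were 1.82 times as high as Xist-rich ones in Lgr5-low control, 1.5 times in Lgr5-low cystine and 1.26 times in each Lgr5-high group. Tested within Lgr5-low control, 88.7% of the 62 members with a mean over 200 CPM were higher in Xist-poor libraries. This share was 38.7% in Lgr5-low cystine, 0.0% in Lgr5-high control and 3.23% in Lgr5-high cystine. Among 557 other genes over that level it was 64.8%, 23.0%, 1.26% and 2.69%, in the same order. Within the classes, the ratio of Lgr5-high to Lgr5-low on control diet was 0.741 in Xist-poor and 1.07 in Xist-rich libraries, so that its direction was not shared by them. On cystine diet the corresponding ratios were 0.903 and 1.07. Cystine over control gave 1.13 in both classes of Lgr5-high cells, and in Lgr5-low cells 0.928 in Xist-poor and 1.13 in Xist-rich libraries.

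**Figure D2:**
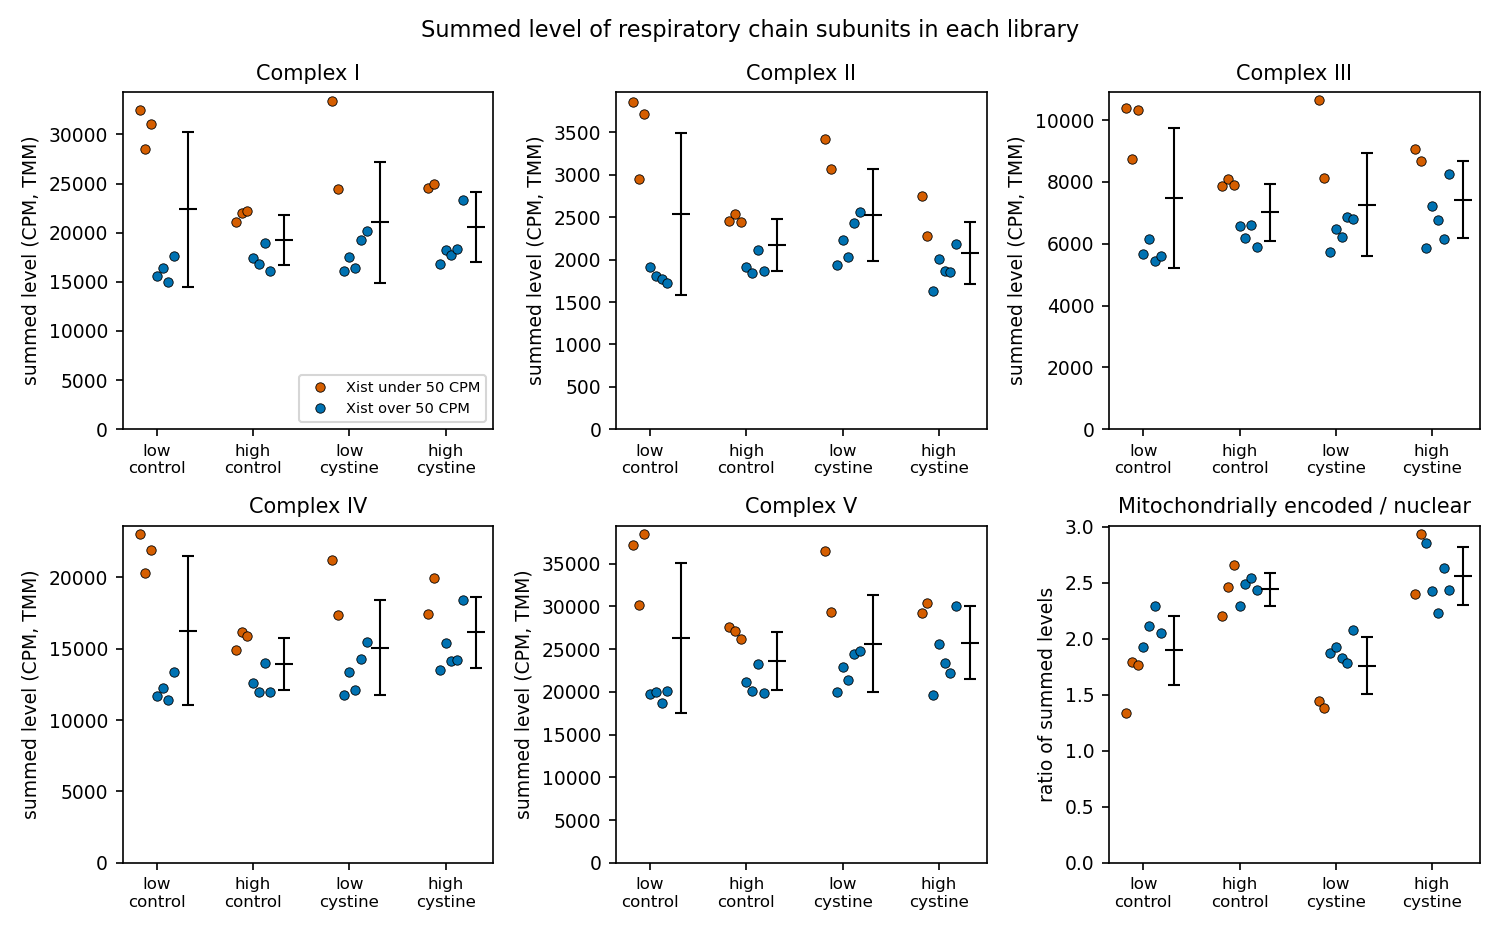
Summed level (CPM, TMM-scaled) of the members of complexes I to V in each of 28 libraries, and the ratio of mitochondrially encoded to nuclear subunits, by group with the Xist classes in separate colours; black dashes with bars show the group mean and its SD. For complex I in Lgr5-low control, Xist-poor libraries average 30710 CPM and Xist-rich ones 16150 CPM, while the group means of all 4 groups lie between 19250 and 22390 CPM.

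Between the populations on control diet, 2 of the 82 tested members were lower in Lgr5-high cells and 0 were higher. That is 2.44% of members, beside 1.02% of all 12495 genes tested that were lower. Among genes with a mean over 200 CPM the shares lower were 3.23% of 62 members and 3.95% of 557 other genes. Atp5g3, a c-ring gene at chromosome 2 73908447 to 73911326 (GRCm38), had a lowest, median and highest level of 312, 343 and 539 CPM in Lgr5-low control and of 228, 265 and 292 CPM in Lgr5-high control libraries. The groups did not overlap. The difference was -0.59 ± 0.14 on the log2 scale (SE; edgeR quasi-likelihood test, adjusted p = 0.0147). Uqcr11, a small subunit of complex III at chromosome 10 80402997 to 80406830, ranged from 307 through a median of 368 to 403 CPM in Lgr5-low control and from 185.5 through 261 to 304 CPM in Lgr5-high control libraries. These groups too were apart, with a difference of -0.52 ± 0.13 on the log2 scale (SE; edgeR adjusted p = 0.0279). Both calls depended on single libraries. Atp5g3 did not pass without Lgr5-low control replicate 1 (adjusted p = 0.0613). Uqcr11 did not pass without that library or without Lgr5-high control replicate 1, 5 or 7 (adjusted p up to 0.0759).

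Most other members had negative values without passing. Of 82 log2 fold changes 65 were negative, with a median of -0.20 beside -0.01 over all genes. By complex the medians were -0.20 for I, -0.09 for II, -0.24 for III, -0.29 for IV and -0.16 for V. Nearest to the threshold were Cox7a1 at -1.17 (adjusted p = 0.057), Uqcrfs1 at -0.66 (0.0751) and Cox5a at -0.58 (0.0849). Ndufb6 and Ndufb10, accessory subunits of the membrane arm of complex I, had -0.56 and -0.57, Sdhb had -0.44 and Sdhd -0.17, all with adjusted p over 0.1. These medians moved with the classes: over all members the median was -0.39 in Xist-poor and 0.10 in Xist-rich libraries on control diet. Without Lgr5-low control replicate 1 the median of all members was -0.07. With a term for the Xist class in the model, 10 members passed, all lower, beside 450 of all genes in either direction. Uqcrfs1, Cox5a and Ndufb10 were among these members and Cox7a1 was not.

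On cystine diet 5 of 82 members (6.1%) were lower in Lgr5-high cells and 0 were higher, beside 1.54% of all genes tested that were lower. Over 200 CPM the shares lower were 3.23% of 62 members and 5.57% of 557 other genes. The 5 members are the electron-carrying pair of complex III, a pair of complex IV subunits and 1 subunit of complex I. Uqcrfs1, the Rieske protein (chromosome 13 30540308 to 30545362), had a lowest, median and highest level of 107, 119 and 141 CPM in Lgr5-low cystine and of 19.9, 62.3 and 87.8 CPM in Lgr5-high cystine libraries. The groups were separate. On the log2 scale the difference was -1.11 ± 0.20 (SE; edgeR adjusted p = 0.00119). Cyc1, cytochrome c1 (chromosome 15 76343523 to 76346260), ranged from 134 through 196 to 263 CPM in Lgr5-low cystine and from 83.1 through 103 to 138 CPM in Lgr5-high cystine libraries. These ranges overlapped only between 134 and 138 CPM, and the difference was -0.82 ± 0.17 (SE; adjusted p = 0.00496).

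Cox5a, a matrix-side subunit of complex IV (chromosome 9 57521274 to 57532426), ranged from 96.2 through a median of 157 to 207 CPM in Lgr5-low cystine and from 54.9 through 75.8 to 142 CPM in Lgr5-high cystine libraries. The ranges overlapped, with lower levels in Lgr5-high cells (log2 fold change -0.84 ± 0.18 SE, adjusted p = 0.00614). Cox7a1 (chromosome 7 30184144 to 30186078) ranged from 204 through 514 to 824 CPM in Lgr5-low cystine and from 110 through 129 to 268 CPM in Lgr5-high cystine libraries. It had the largest difference of the 5 (-1.45 ± 0.33 SE, adjusted p = 0.0126), with some overlap. Ndufb10 (chromosome 17 24722060 to 24724478), an accessory subunit of complex I, ranged from 410 through 600 to 1096 CPM in Lgr5-low cystine and from 322 through 347 to 499 CPM in Lgr5-high cystine libraries. It lay at the threshold (-0.71 ± 0.20 SE, adjusted p = 0.049) and was lost when any 1 of 19 of the 28 libraries was left out. The other 4 calls held with every single library left out.

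The remaining members did not share a direction on cystine diet. Of 82 log2 fold changes 47 were negative, with a median of -0.08 beside -0.04 over all genes. The small subunits of complex III had a median of 0.14 while the electron-carrying pair, Uqcrfs1 and Cyc1, had -0.96. In complex V the catalytic Atp5b had -0.48 (adjusted p = 0.0715) and Atp5a1 -0.43 (0.108). In complex II, Sdhb had -0.63 (0.124) and Sdhc -0.13. With a term for the Xist class in the model, 11 members passed, all lower, among them Atp5b, Atp5a1 and Sdhb. In that model 619 of all genes passed in either direction. Markers of another cell type differed between these groups. All 8 macrophage markers (Cd68, Fcer1g, Tyrobp, C1qb, Clec4f, Vsig4, Cd5l and Folr2) were higher in Lgr5-high cystine libraries. Their summed level was 187 to 618 CPM in 6 of these libraries and 23.4 CPM in replicate 1, against 31.3 to 133 CPM in Lgr5-low cystine libraries. With a term for a macrophage score in the model, Uqcrfs1, Cyc1 and Cox7a1 still passed and Cox5a did not (adjusted p = 0.114). Without the libraries under 5 M counts Cox7a1 (adjusted p = 0.0627) and Ndufb10 did not pass.

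**Figure D3:**
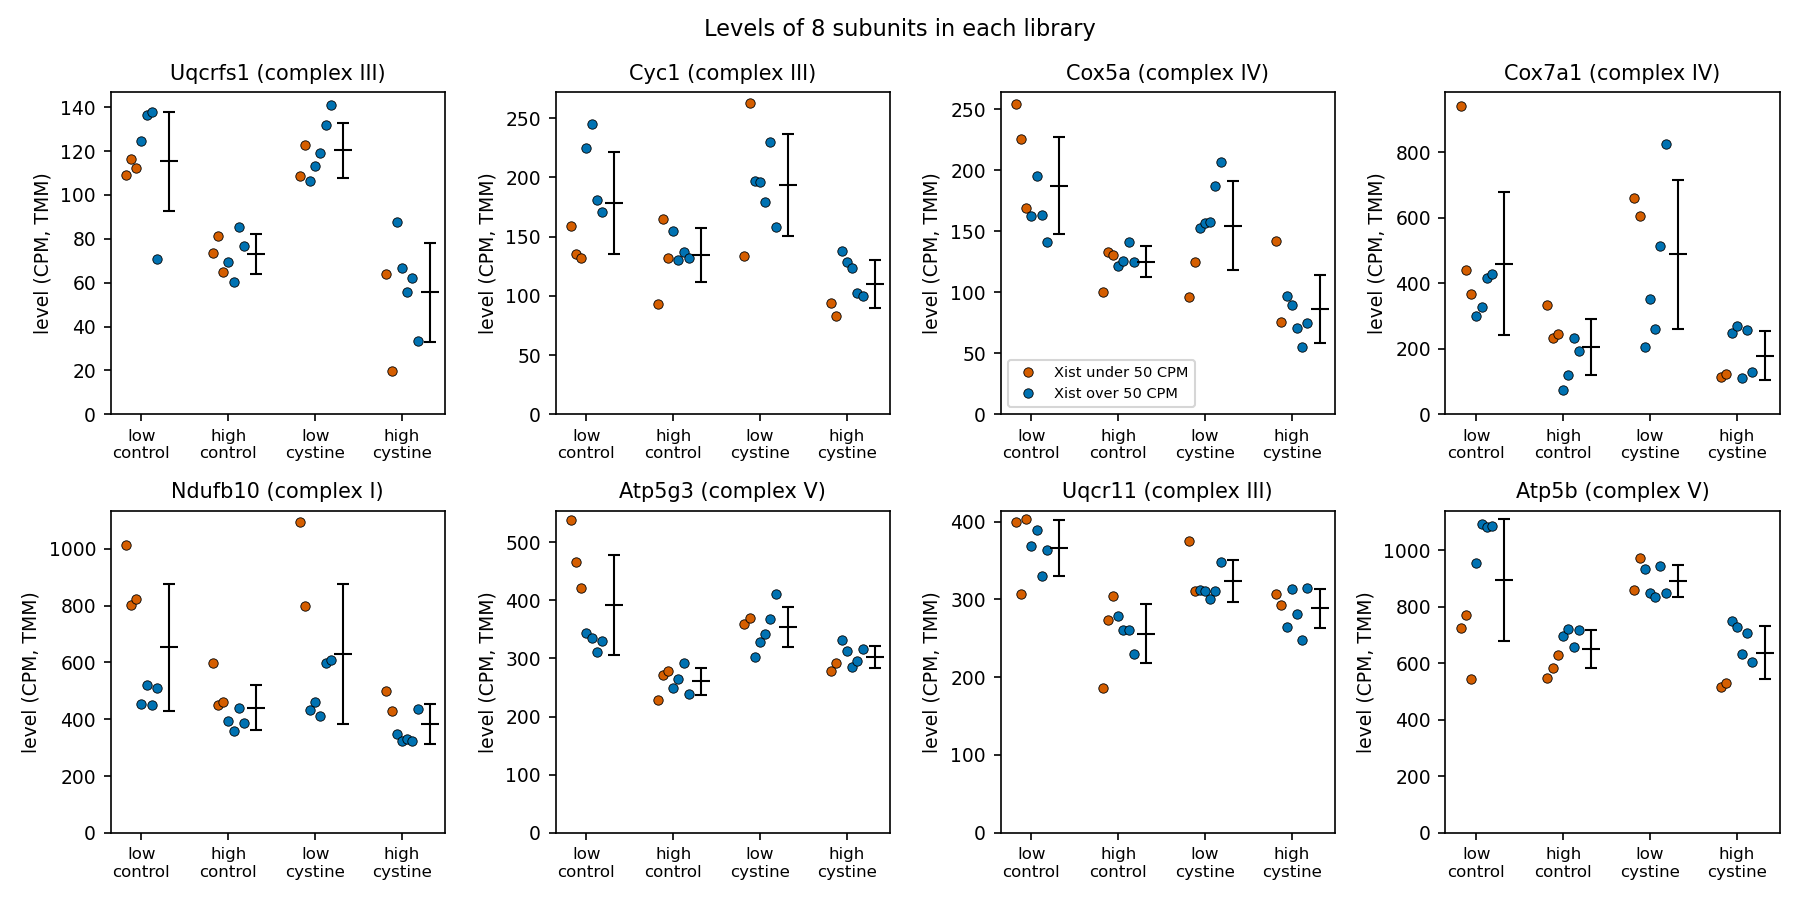
Level (CPM, TMM-scaled, axes from 0) of 8 subunits in each of 28 libraries, by group with the Xist classes in separate colours; black dashes with bars show the group mean and its SD. Uqcrfs1 lies at 107 to 141 CPM in Lgr5-low cystine and 19.9 to 87.8 CPM in Lgr5-high cystine libraries, without overlap, and Atp5g3 at 312 to 539 against 228 to 292 CPM in the control groups.

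The diet changed no member past the threshold in either population. In Lgr5-high cells 0 of 82 members passed, beside 0.168% of all genes (21 genes). At an unadjusted p under 0.05, 2 of 82 members were higher and 1 was lower, which is no more than chance alone would give. Cox5a had the lowest p, at -0.53 ± 0.18 on the log2 scale (SE; adjusted p = 0.497) and mean levels of 125 ± 12.8 (SD) CPM on control and 86.3 ± 27.95 CPM on cystine diet. The other values were 0.63 for Ndufb4c and 0.47 for Cox7c, both of which share sequence with a copy. Uqcrfs1 had -0.39 and Cyc1 -0.29, while Ndufb6 had 0.32, Atp5g3 0.21 and Atp5j, a subunit of the peripheral stalk, 0.22. In complex II, Sdha had -0.17 and Sdhb -0.19. The median over members was 0.09 beside -0.02 over all genes. Macrophage markers differed here as well, with a median summed level of 371 CPM on cystine (23.4 to 618) against 40.8 CPM on control diet, and their part in these values was not tested beyond the model with a macrophage score, in which no member passed.

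In Lgr5-low cells 0 of 82 members passed, and 0.0% of all genes did. At an unadjusted p under 0.05, 371 genes were found, among them 1 member, Ndufa12, an accessory subunit near the flavin end of complex I, at -0.34 ± 0.17 (SE, adjusted p = 1.0). Other members of lowest p in their complexes were Ndufs5 (0.26), Sdhc (0.08), Sdhd (-0.06), Uqcr11 (-0.18), Cyc1 (0.12), Cox5a (-0.28), Cox5b (-0.15), Atp5g3 (-0.15) and Atp5o (-0.15), none past the threshold. The median over members was -0.04. The difference between the diet effects of the populations passed for 0 members and 0.0% of genes, with 415 genes at an unadjusted p under 0.05. Ndufb4c (0.76) and Cox7c (0.70) had the lowest p among members. DESeq2 called 0 members in all 3 of these comparisons, and limma-voom called Cox5a as lower in Lgr5-high cells on cystine diet and no other member. With 2-fold changes planted in simulated counts for the population comparison on control diet, 22 of 100 such genes were recovered. These genes were drawn from all genes tested, each at its own spread. The share recovered for members or for the diet comparisons was not measured.

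More members differed between the Xist classes than in any comparison of population or diet. Averaged over the 4 groups, 60 of 82 members (73.2%) were higher in Xist-poor than in Xist-rich libraries, beside 8.72% of all genes tested that were higher, and 1 member was lower. The members named for this contrast were chosen after their values were seen. In Lgr5-low cells 58 members (70.7%) were higher, beside 7.87% of genes, and in Lgr5-high cells 25 members (30.5%), beside 1.49% of genes. The count in Lgr5-high cells rested on few libraries: it was 7 without Lgr5-high cystine replicate 2, 10 without replicate 1 of that group, 15 without Lgr5-high control replicate 2 and 44 without Lgr5-high cystine replicate 7. It was also 7 without the libraries under 5 M counts. The count over all groups stayed between 56 and 63 with any 1 library left out. The median log2 difference of members was 0.45 over all groups, while that of all genes was -0.24, so that members differed in the other direction from the typical gene.

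Every complex contributed to this difference, but not every kind of subunit. In complex I, 29 of 38 members were higher, among them Ndufa11 (0.84 ± 0.08 SE) and Ndufb4 (0.80 ± 0.07). In Lgr5-low control libraries Ndufa11 lay at 953 to 1416 CPM in the 3 Xist-poor and 515.5 to 579 CPM in the 4 Xist-rich libraries. Ndufb4 lay there at 1228 to 1497 against 445 to 620.5 CPM, again without overlap, though its reads are shared with Ndufb4c. By kind, 26 of 30 accessory subunits of complex I were higher (median 0.50), and 2 of its 7 core subunits (median 0.08). All 4 subunits of complex II were higher. Sdhb, at 0.72 ± 0.07, lay at 1382 to 1924 against 742 to 829 CPM in Lgr5-low control libraries, with no overlap.

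In complex III, 4 of 9 members were higher, all of them small subunits such as Uqcr10 (0.585 ± 0.07). Its electron-carrying pair did not pass, with -0.25 for Cyc1 and -0.16 for Uqcrfs1. In complex IV, 10 of 14 were higher, among them Cox4i1 (0.39 ± 0.07), and in complex V 13 of 17. Within complex V all 4 tested peripheral stalk subunits and all 5 accessory membrane subunits were higher, as were the c-ring genes Atp5g1 (0.61) and Atp5g2 (0.69) but not Atp5g3 (0.11). The 5 subunits of the catalytic head and central stalk were divided. Atp5c1, the gamma subunit of the rotating stalk, was higher (0.61 ± 0.08 SE), as was Atp5e (0.435 ± 0.08), the epsilon subunit, while Atp5d, the delta subunit, had -0.14 without passing. Atp5b was the 1 member that was lower (-0.30 ± 0.07 SE, edgeR adjusted p = 0.00104). In Lgr5-low control libraries Atp5b lay at 543 to 770 CPM in Xist-poor and 955 to 1092 CPM in Xist-rich libraries. In Lgr5-low cystine libraries its ranges overlapped, at 859 to 972 and 835 to 943 CPM. Atp5a1 had -0.19 without passing. The X-linked members Ndufa1, Ndufb11 and Cox7b were at 0.43, 0.42 and 0.48, within the range of the autosomal ones.

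Other abundant genes also differed in this direction. Of 557 genes with a mean over 200 CPM that are not members, 372 (66.8%) were higher in Xist-poor libraries and 49 (8.8%) lower, beside 55 (88.7%) and 1 (1.61%) of the 62 members over that level. For transcripts up to 700 bases, 87 of 124 such genes were higher and 22 lower, against 31 and 0 of 36 members. Among genes over 200 CPM that are not members, the median log2 difference was 0.52 for transcripts up to 700 bases (124 genes), and that of the 36 members of that length was 0.52 as well. From 700 to 1000 bases the medians were 0.50 for 111 other genes and 0.46 for 17 members, and from 1000 to 1500 bases 0.44 and 0.48. From 1500 to 2500 bases, where Atp5a1 and Atp5b belong by length, the median was 0.32 for 121 other genes and 0.11 for 13 members. Over genes of any level the medians fell from 0.24 to -0.40 from the shortest to the longest transcripts. Cell markers moved too: all 4 Paneth cell genes (Lyz1, Mmp7, Ang4 and Defa24) were lower in Xist-poor libraries. Their summed level was 11200 to 20100 against 31900 to 69000 CPM in Lgr5-low control and 14900 to 16500 against 62800 to 119000 CPM in Lgr5-high control libraries. The ranges overlapped on cystine diet, at 15500 to 33000 against 24400 to 75100 CPM in Lgr5-low and 36700 to 50900 against 43800 to 121000 CPM in Lgr5-high libraries. Of the 13 mitochondrially encoded subunits 9 were higher (median 0.37), while of 13 regulators of mitochondrial biogenesis 0 were higher and 2 were lower, Pprc1 (-1.11) and Tfam (-0.46). The part of transcript length, of Paneth cells and of library quality in the difference between the classes was not tested.

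**Figure D4:**
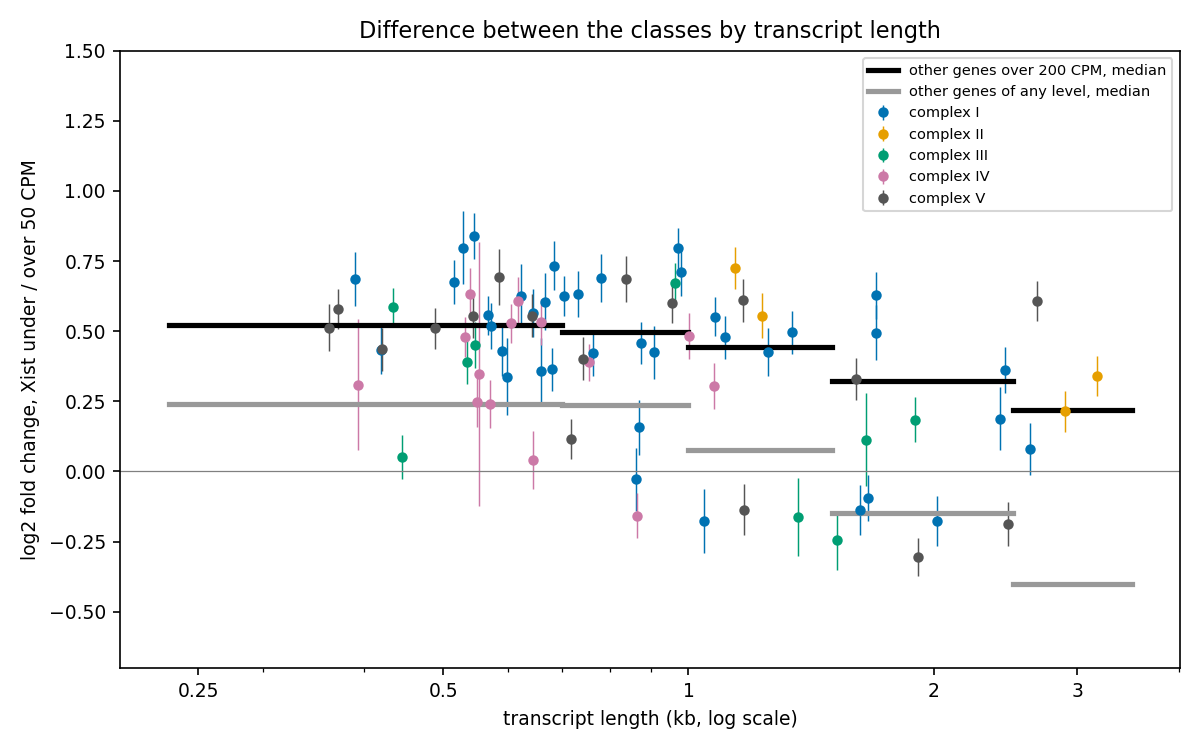
Log2 fold change of Xist-poor over Xist-rich libraries (mean of the 4 groups; bars are SE) for the 82 tested members against transcript length in kb on a log axis, coloured by complex, with horizontal lines for the medians of genes that are not members. Members up to 700 bases have a median of 0.52, the same as other genes over 200 CPM of that length, and Atp5b stands below 0 at -0.30.

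Within the classes the populations were compared with the diets averaged and in another model. These counts are therefore not directly comparable with those of each diet above. With the diets averaged, 20 of 82 members (24.4%) were lower in Lgr5-high cells of Xist-poor libraries, beside 3.65% of all genes, and 0 were higher, beside 3.4% of all genes. By diet, 19 members were lower on control diet (23.2%, beside 1.46% of genes) and 7 on cystine diet (8.54%, beside 1.55%), and the difference between diets in this class was not tested. In Xist-rich libraries 12 members (14.6%) were lower, beside 4.14% of genes, and 12 (14.6%) were higher, beside 5.52% of genes. Over 200 CPM, 17.7% of 62 members and 36.1% of 557 other genes were higher in Lgr5-high cells of Xist-rich libraries, and 11.3% and 9.87% were lower. In Xist-poor libraries 27.4% of these members and 14.2% of these other genes were lower, and 0.0% and 7.72% were higher. By diet, in Xist-rich libraries 6.45% of these members were higher and 4.84% lower on control diet, beside 19.7% and 3.95% of these other genes. On cystine diet the shares in Xist-rich libraries were 3.23% and 3.23%, beside 9.34% and 5.39%. The count of members lower in Xist-poor libraries was 12 without Lgr5-low cystine replicate 1 and 11 without Lgr5-high cystine replicate 2, and 11 without the libraries under 5 M counts. Genes of these contrasts were named after their values were seen. The higher members in Xist-rich libraries were Ndufa2, Ndufa3, Ndufb1, Ndufb4, Ndufb4c and the core subunit Ndufs8 of complex I, Uqcr10 of complex III, Cox6c and Ndufa4 of complex IV, and Atp5j, Atp5l and Atp5mpl of complex V. The identifier of Ndufb1 is annotated as a long non-coding RNA in GENCODE M21.

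The classes share no library, and 7 members were lower in both. These were Ndufb10, Cyc1, Uqcrfs1, Cox7a1, Atp5a1, Atp5b and Atp5g3, which is 8.54% of the members tested beside 1.54% of all genes. They make up 58.3% of the 12 members lower in Xist-rich and 35.0% of the 20 lower in Xist-poor libraries. Over all genes, 193 were lower in both classes, of 517 lower in Xist-rich and 456 lower in Xist-poor libraries. The share lower in both classes was not measured among genes over 200 CPM. At that level 11.3% of members and 9.87% of other genes were lower in Xist-rich libraries, and 27.4% and 14.2% in Xist-poor ones. Uqcrfs1 had -0.85 ± 0.16 (SE, adjusted p = 0.00066) in Xist-rich and -1.03 ± 0.23 (0.00442) in Xist-poor libraries. Cyc1 had -0.63 (0.000656) and -0.65 (0.0147), and Cox7a1 -1.16 (0.0103) and -1.76 (0.00899). For Atp5b and Atp5a1 of the ATP synthase head the population difference was nearly the same in both classes. It was -0.48 (0.000103) and -0.51 (0.00299) for Atp5b and -0.43 (0.00175) and -0.47 (0.0173) for Atp5a1. Cox5a passed in Xist-rich libraries at -0.76 (adjusted p = 8.94e-05) and had -0.42 in Xist-poor ones (0.118), and the difference between these was not past the threshold (0.524).

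The population difference itself differed between the classes for 5 members (6.1%), all lower in the Xist-poor class, beside 0.2% of genes. They were Ndufb4c (difference -1.15, adjusted p = 0.00586), Cox7c (-0.80, 0.0476), Ndufc1 (-0.78, 0.0393), Ndufs8 (-0.72, 0.0476) and Ndufb4 (-0.63, 0.0477). Among genes over 200 CPM the shares lower in this way were 6.45% of 62 members and 2.69% of 557 other genes. Ndufc1, for example, lay at 3945 to 5498 CPM in Lgr5-low control and 2424 to 2882 CPM in Lgr5-high control Xist-poor libraries. In Xist-rich libraries it lay at 2124 to 3039 and 1900 to 2175 CPM, which overlap only between 2124 and 2175 CPM. On control diet alone Ndufc1 did not pass for the difference between the classes. Cox7c, Ndufb4 and Ndufb4c share reads with copies. The count of 5 ranged from 1 to 14 as single libraries were left out.

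**Figure D5:**
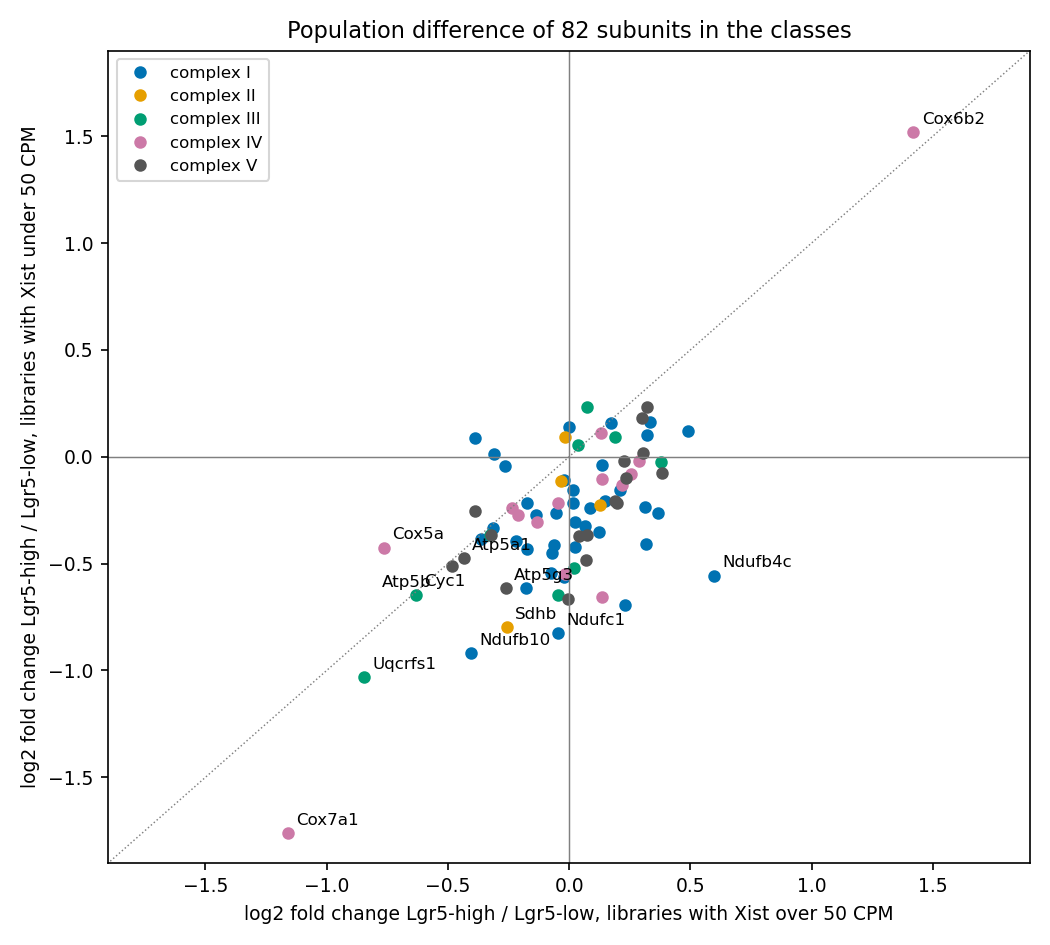
Log2 fold change of Lgr5-high over Lgr5-low cells for the 82 tested members in Xist-rich (x axis) and Xist-poor libraries (y axis), with diets averaged and points coloured by complex. Uqcrfs1 (-0.85 and -1.03), Cyc1 (-0.63 and -0.65) and Cox7a1 (-1.16 and -1.76) lie lower in both, whereas Ndufc1 (-0.05 and -0.82) lies lower in Xist-poor libraries.

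The subunits made inside the mitochondrion did not follow the nuclear ones between populations. The ratio of the summed 13 mitochondrially encoded subunits to the summed nuclear members was 1.895 ± 0.309 (SD, n = 7) in Lgr5-low control, 2.44 ± 0.15 in Lgr5-high control, 1.76 ± 0.25 in Lgr5-low cystine and 2.56 ± 0.26 in Lgr5-high cystine libraries. On cystine diet the ranges were 1.38 to 2.08 and 2.22 to 2.93, without overlap. On control diet they were 1.335 to 2.29 and 2.21 to 2.65. In each class the Lgr5-high mean was the higher, for instance 2.44 against 2.095 in Xist-rich and 2.44 against 1.63 in Xist-poor control libraries. By gene, mt-Nd4l was higher in Lgr5-high cells on control diet (1.09) and mt-Cytb on cystine diet (0.71). With diets averaged, 8 of 13 were higher in Xist-rich and 7 of 13 in Xist-poor libraries. Of all genes tested, 5.52% and 3.4% were higher in these classes. Of 557 genes over 200 CPM that are not members, 36.1% and 7.72% were higher. On cystine diet an example is complex III, whose 1 mitochondrial subunit is cytochrome b. Its gene mt-Cytb had 44840 ± 7917 CPM (SD) in Lgr5-low cystine and 73460 ± 16680 CPM in Lgr5-high cystine libraries, beside 7265 ± 1660 and 7432 ± 1255 CPM for the summed nuclear subunits of the complex. The mt-Cytb ranges overlapped there, at 32002 to 57358 and 53735 to 105660 CPM. They overlapped on control diet too, at 43973 to 64318 CPM in Lgr5-low and 53907 to 76672 CPM in Lgr5-high libraries. Libraries were selected for poly(A), and the part of tail length in the mitochondrial levels was not tested.

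Among other genes of the pathway, those that passed between the populations were mostly genes of glycolysis, beside 1.8% of all genes tested that passed in either direction on control and 2.64% on cystine diet. Of 14 tested genes for mobile electron carriers and coenzyme Q synthesis, 13 regulators of mitochondrial biogenesis and 14 genes of mitochondrial import and cristae, 0 passed on either diet. The assembly factors passed for 1 gene, Cmc1 of complex IV, which was higher in Lgr5-high cells on cystine diet (0.82). Of 16 genes of the tricarboxylic acid cycle, which supplies the NADH and succinate for the chain, Mdh2 was lower on control diet (-0.71, adjusted p = 0.0121), and Mdh2 (-1.02) and Dlst (-0.91) were lower on cystine diet. Of 14 tested genes of glycolysis, 3 were lower on control diet (Aldoa at -0.85, Gapdh at -0.63 and Pfkp at -1.18) and 1, Hk2, was higher (0.86), and 6 were lower and 0 higher on cystine diet. Markers of goblet and enteroendocrine cells were lower too: 5 of 6 goblet cell markers were lower in Lgr5-high cells on both diets, 5 and 4 of 6 enteroendocrine markers were lower on control and cystine diet, and enterocyte markers had medians of -0.67 and -0.98 with 0 and 1 of 8 past the threshold. Paneth cell genes had positive values, with medians of 0.49 on control and 0.32 on cystine diet and 0 of 4 past the threshold. Their summed level had a median of 31900 CPM in Lgr5-low and 62800 CPM in Lgr5-high control libraries, and of 55600 and 58800 CPM on cystine diet. The part of cell composition in the differences of Uqcrfs1, Cyc1, Cox7a1 and Atp5b between populations was not tested.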

How the data were processed

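RNA was sequenced in 28 libraries, and the authors deposited their estimated counts for all genes in 1 table of whole numbers. Salmon 1.3.0 and build mm10 are named per the submitters' processing notes; which annotation was used is not given in the sources used here. With Salmon, reads of near-identical transcripts are divided by a model. Per the labels' protocols, libraries were poly(A)-selected and strand-specific. Of 54354 genes, 51528 (94.8%) matched GENCODE M21 (GRCm38), the source of coordinates and transcript lengths. Differences were tested with edgeR 4.0.16 (R 4.3.3; quasi-likelihood, robust fit, TMM factors, filterByExpr, 1 mean per group over 28 libraries, 24 residual degrees of freedom), two-sided, with Benjamini-Hochberg adjustment over 12495 genes and a threshold of 0.05. The Xist classes were compared in a second edgeR model with 1 mean per group and class. All adjusted p-values are from edgeR unless another tool is named. The common biological coefficient of variation was 0.629. Over 84 pairs of libraries within groups the chi-square per gene was at least 15.2, so none was a repeat deposit. In counts simulated for the control-diet populations (12495 genes), 22 of 100 genes changed 2-fold and 65 of 100 changed 4-fold were recovered, with 3 false calls. Total counts were 2.75 to 21.5 M (mega) per library, and the limit given for 0 counts covers counting error alone.

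Members, gene lists and motifs were chosen with earlier results of these data known. Named members are, per complex, the 2 highest and the lowest per kb, those past the threshold in a population or diet contrast or else the 2 of lowest p, the 2 of lowest p for the difference of diet effects, and the isoforms and catalytic subunits. Alternatives were DESeq2 1.42.0, limma 3.58.1 (voom with quality weights), RLE factors, other count filters, only the compared groups, a replicate block, a term for the Xist class, libraries under 5 M counts left out, and each library left out. A macrophage score and pseudogene copies added to their genes were tried after the data had been seen, as were the contrasts between and within Xist classes and the counts of genes with a mean over 200 CPM. Sequences are from RefSeq.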

Additional observations from a re-analysis of the deposited data

Results flagged for a closer look

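Among 136 sets of 7 libraries (34 named members in 4 groups), 10 held a library whose gap to the nearest other exceeded Dixon's 95% critical share of the group's range; chance alone gives this in about 1 of 20 groups. Lgr5-high control replicate 1 stood apart for 3 members: Ndufb10 was highest there (597.6 CPM, others 357 to 460), and Uqcrc1 (18.5 CPM, others 47.6 to 61.7) and Cox5b (181.5 CPM, others 240.0 to 269) were lowest. Lgr5-low cystine replicate 1 was highest for Uqcr10 (3709 CPM, others 1800 to 2534) and lowest for Uqcrc1 (29.9 CPM, others 61.7 to 85.4). Uqcrc1 was also far from the others in Lgr5-low control replicate 3 (152 CPM, others 37.8 to 86.4). Sdhb was highest in Lgr5-high cystine replicate 1 (1212 CPM, others 597 to 783). Uqcrfs1 was lowest in Lgr5-low control replicate 7 (70.8 CPM, others 109 to 138), Cox7a1 highest in Lgr5-low control replicate 1 (940 CPM, others 300 to 439) and Cox5b highest in Lgr5-high cystine replicate 7 (346 CPM, others 249 to 286).

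The difference between Lgr5-high and Lgr5-low cells itself differed between Xist-poor and Xist-rich libraries for 5 members with diets averaged: Ndufb4c (-1.15), Cox7c (-0.80), Ndufc1 (-0.78), Ndufs8 (-0.72) and Ndufb4 (-0.63). On control diet alone it did so for Ndufb4 (-1.08, adjusted p = 0.0138) and Ndufb4c (-1.34, adjusted p = 0.0175), which share reads. The count of 5 was 1 without Lgr5-low control replicate 1, 4, 5 or 6, Lgr5-low cystine replicate 1, 3, 4 or 5, Lgr5-high control replicate 4, 5 or 6, or Lgr5-high cystine replicate 2, 5, 6 or 7. It was 2 without Lgr5-high control replicate 1 or 7 or Lgr5-high cystine replicate 1, and 3 without Lgr5-low control replicate 3 or Lgr5-high cystine replicate 4. It rose to 9 without Lgr5-low cystine replicate 7, to 12 without Lgr5-low control replicate 2 and to 14 without Lgr5-low cystine replicate 2.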

How the results depend on the processing

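The number of members called between populations on control diet, 2, was 1 with no count filter (Atp5g3), 1 with only the compared groups (Cox7a1) and 1 without libraries under 5 M counts (Uqcrfs1). Neither Atp5g3 nor Uqcr11 passed in the last 2 of these. The count rose to 9 with limma-voom (8 lower and 1 higher, Cox6b2), 9 with DESeq2 and 10 with a term for the Xist class (all lower). With limma-voom the median of members was 0.02 in place of -0.20. On cystine diet the count of 5 was 3 with the macrophage score and 3 without libraries under 5 M counts (median 0.06), and 10 with limma-voom (9 lower and 1 higher, Ndufb4c) and 11 with the Xist term (all lower). With 1 library left out, the counts ranged from 0 to 4 on control diet and from 4 to 7 on cystine diet. On control diet the count was 0 without Lgr5-low control replicate 1, 4 without Lgr5-low control replicate 3, and 1 without Lgr5-high control replicate 5 or 7. The diet called 1 member in Lgr5-high cells with only the compared groups (Ndufb4c) and 1 with limma-voom (Cox5a). The other diet settings, with leave-one-out counts of 0 to 0, called no member.

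The count of members higher in Xist-poor libraries stayed between 56 and 63. The count of 5 for the difference between classes was 3 without libraries under 5 M counts, 10 with no count filter, 1 with limma-voom and 12 with DESeq2, and 1 to 14 with 1 library left out. Within Xist-poor libraries the count of 20 was 11 without libraries under 5 M counts and 11 to 27 with 1 library left out; within Xist-rich libraries the 24 became 16 to 27. Values that changed sign were those of Sdhd between populations on control diet (0.092 with limma-voom, and -0.269 to 0.018 with 1 library left out, positive without Lgr5-low control replicate 1), of Sdhc for the diet in Lgr5-low cells (-0.015 without libraries under 5 M counts) and of Sdhd there (0.101 with the Xist term, 0.182 with limma-voom, and -0.154 to 0.114 with 1 library left out, positive without Lgr5-low control replicate 1 or 3). None of these passed the threshold. The cause of these changes was not tested.

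With replicate number as a replicate block, 4 members were called on control diet (Cox7a1 and Ndufb10 beside Atp5g3 and Uqcr11) and 7 on cystine diet (Atp5b and Sdhb beside the 5); with a block of diet and number, the same 4 on control diet and 8 on cystine diet (Ndufa11 in addition). Same-numbered Lgr5-high and Lgr5-low libraries deviated together only weakly (correlations from 0.05 to 0.24 on control and from -0.07 to 0.17 on cystine diet, with 4 and 3 of 7 best matched to their own number), and the labels do not say what a number stands for, so the fit without the block was kept. The number does carry the Xist class within each diet. For genes drawn from all those tested, simulated 2-fold differences were often not detected, and members were not simulated apart.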
